A study of Mus musculus with 20 samples.

Results

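The transcripts described here are those of 8 genes of PPAR alpha signalling and fatty acid oxidation in mouse liver, namely Ppara, Cpt1a, Acadm, Ehhadh, Acaa1b, Fgf21, Pdk4 and Vnn1. They were chosen by name, with earlier results of these data known, and each was found in the deposited table by its Ensembl identifier. All 8 were present among 21780 genes, and all 8 were among the 15522 genes with enough counts to be tested. Polyadenylated RNA was sequenced from the livers of 20 male C57Bl/6J mice, with 5 mice in each of 4 groups and 1 library per mouse. Every mouse ate a high-fat diet (HFD, 42% of calories from fat) for 12 weeks from 8 weeks of age, received 1 oral gavage at 10 weeks of age, and was fasted for about 6 h before the liver was taken. The HFD control mice were gavaged with corn oil alone, and no group ate a normal diet. The HFD + Aroclor mice received Aroclor 1260 (20 mg/kg), a commercial mixture of mostly non-dioxin-like polychlorinated biphenyls (PCBs), the HFD + PCB 126 mice received a dioxin-like congener (20 µg/kg), and the HFD + Aroclor + PCB 126 mice received both at these doses.

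PPAR alpha, the product of Ppara, is a nuclear receptor that is activated by fatty acids and their derivatives. With its partner RXR it binds direct repeats of the AGGTCA motif beside its target genes, and in the fasted liver it raises the transcription of genes for fatty acid uptake, oxidation in mitochondria and peroxisomes, and ketone body formation. Cpt1a, Acadm, Ehhadh, Acaa1b, Fgf21, Pdk4 and Vnn1 are among its known targets in this organ.

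Of the 8 transcripts, Acadm rose and Acaa1b fell in HFD + Aroclor + PCB 126 liver relative to HFD control, and the other 6 did not pass the test. The log2 fold change (log2FC) was 0.28 for Acadm and −0.47 for Acaa1b. None of the 8 passed with Aroclor alone, with PCB 126 alone, or between the combined exposure and either single exposure. The call rule was an adjusted p under 0.05 in the quasi-likelihood test of edgeR with Benjamini-Hochberg adjustment over all tested genes. By that rule 32.8% of all tested genes were called with the combined exposure, 15.8% higher and 17% lower, so 2 of 8 is close to the share among all genes. The corresponding shares were 0% with Aroclor, 0.116% with PCB 126, 0.412% for the combined exposure against Aroclor and 16.7% for the combined exposure against PCB 126. At an unadjusted p under 0.05, edgeR gave 1 of 8 with Aroclor (Ppara) and 0 of 8 with PCB 126, where 17.2% and 14.7% of all genes had such a p. DESeq2 called none of the 8 in these 2 comparisons, where it called 1.2% and 2.53% of all genes it adjusted.

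The libraries had total counts of 21836506 to 36854887. In each library the slope of log2 CPM (reads of a gene relative to the TMM-adjusted depth of its library) against the GC content of the transcripts was measured, relative to the mean of the 20 libraries and per 10 percentage points of GC. It was 0.23 ± 0.13 (SD, n = 5 mice) in HFD control, −0.00057 ± 0.073 with Aroclor, 0.10 ± 0.18 with PCB 126 and −0.33 ± 0.16 with both, and every library of the combined exposure lay below every control library. A length slope, against the log2 of exon length, was measured likewise over genes with a mean of at least 1 CPM. It was −0.14 to 0.019 in HFD control and 0.046 to 0.15 with both PCBs. With Aroclor it was −0.087 to 0.086 and with PCB 126 it was −0.15 to 0.043. Among the markers of other liver cell types, the summed level of 6 stellate cell markers was 137 to 291 CPM in HFD control and 301 to 350 CPM with the combined exposure. It was 256 to 368 CPM with Aroclor and 177 to 346 CPM with PCB 126. With the combined exposure 3 of the 6 were called higher (Lrat, Reln and Dcn) and Des lower, where 15.8% and 17% of all genes were. Transcript GC content was 42.0% for Lrat, 47.7% for Reln, 42.4% for Dcn and 53.6% for Des. The 6 hepatocyte markers summed to 74247 to 104040 CPM in the combined exposure and 81889 to 91085 CPM in HFD control. Of these 3 were called lower (Apoa1, Ttr and Serpina1c, with 55.5%, 46.5% and 51.7% GC). All marker values here are without GC correction. Of the Kupffer cell markers 1 of 6 was higher and of the endothelial markers 1 of 6 was lower, while 0 of 4 cholangiocyte, 0 of 5 lymphocyte, 0 of 3 tested neutrophil, 0 of 4 adipocyte and 0 of 5 erythroid markers were called. In bulk liver RNA, a loss of cells and a loss of RNA per cell cannot be told apart, and the part that these differences play in the results was not tested.

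Ppara (ENSMUSG00000022383; GRCm38, chromosome 15, from 85734983 to 85802819, plus strand) encodes the receptor itself. Its level was 40.2, 60.8, 76.5, 75.05 and 95.6 CPM in the 5 HFD control mice and 126, 135, 108, 86.3 and 120 CPM in the 5 mice of the combined exposure. With Aroclor it was 142, 68.7, 58.8, 173 and 127 CPM, and with PCB 126 it was 100, 131, 59.4, 68.4 and 148 CPM. In the single exposures 3 of 5 mice lay above the highest control mouse and 2 lay within the control range, whereas with both PCBs 4 of 5 lay above it. The log2FC with the combined exposure was 0.73 (95% interval 0.13 to 1.33, standard error 0.289, edgeR adjusted p = 0.0590), and it missed the threshold. The log2FC was 0.71 (adjusted p = 0.238) with Aroclor and 0.54 (adjusted p = 0.388) with PCB 126, values that share the same 5 control mice. For the combined exposure this call turned with the fit: the adjusted p was 0.0322 with DESeq2, 0.0340 with a filter on FPKM and 0.0274 with only the 2 groups in the fit. It was also 0.0373 without HFD control replicate 5, 0.0417 without HFD + Aroclor replicate 3 and 0.0491 without HFD + PCB 126 replicate 3. After correction for GC content (53.4% in its transcripts), the log2FC was 0.88 (adjusted p = 0.0757), and with the GC slope as a covariate it turned to −0.27 (adjusted p = 0.900).

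**Figure D1:**
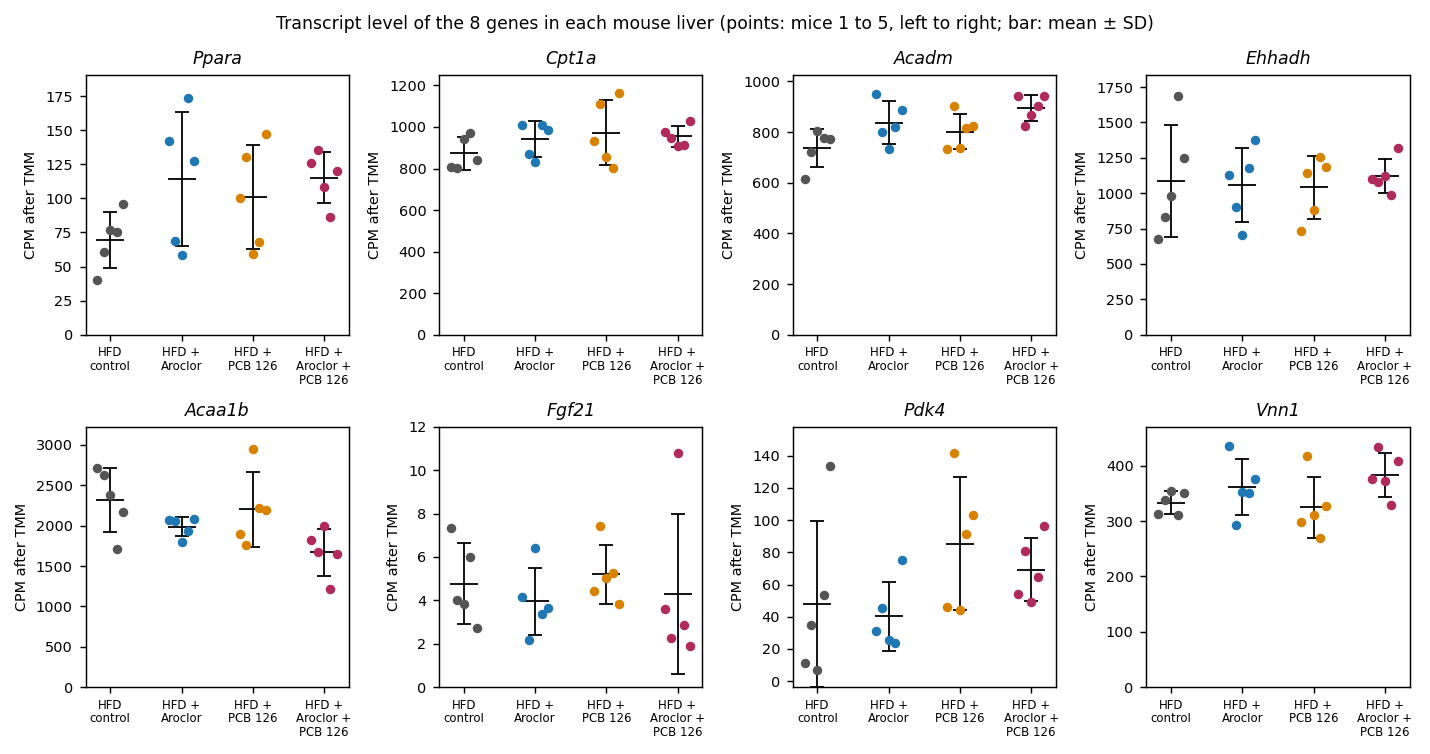
Level of each of the 8 transcripts (CPM after TMM normalization, vertical axis) in each mouse of the 4 groups (horizontal axis), with points for mice 1 to 5 from left to right and bars for the mean ± SD. For Acadm the 5 mice of the combined exposure (824 to 942 CPM) lie above the 5 control mice (615 to 804 CPM), while for the other 7 transcripts the groups overlap, and control Pdk4 spans 6.86 to 134 CPM.

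Cpt1a (ENSMUSG00000024900; chromosome 19, from 3322334 to 3385733, plus strand) encodes the liver carnitine palmitoyltransferase that commits long-chain fatty acids to entry into mitochondria. It was measured at 805, 803, 943, 969 and 841 CPM in the HFD control mice, against 978, 947, 910, 913 and 1029 CPM with the combined exposure. The ranges were 830 to 1012 CPM with Aroclor and 804 to 1163 CPM with PCB 126, so all 4 groups overlapped. The log2FC with the combined exposure was 0.13 (95% interval −0.087 to 0.35, edgeR adjusted p = 0.367). It was 0.11 (95% interval −0.11 to 0.33) with Aroclor and 0.16 (95% interval −0.061 to 0.37) with PCB 126.

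Acadm (ENSMUSG00000062908; chromosome 3, from 153922357 to 153944632, minus strand) encodes the medium-chain acyl-CoA dehydrogenase, which catalyses the first step of mitochondrial beta-oxidation for medium chains. Its level was 615, 722, 804, 776 and 772 CPM in HFD control and 942, 824, 869, 904 and 941 CPM with the combined exposure. All 5 mice given both PCBs lay above all 5 control mice, which was the case in this direction for 10.6% of all tested genes. With Aroclor the mice spanned 732 to 952 CPM and with PCB 126 they spanned 735 to 902 CPM, overlapping both of these groups. The log2FC with the combined exposure was 0.28 (95% interval 0.086 to 0.47, standard error 0.0935, edgeR adjusted p = 0.0264), a ratio of 1.21. With Aroclor it was 0.18 (adjusted p = 0.309) and with PCB 126 it was 0.12 (adjusted p = 0.575). The adjusted p of the combined exposure was above the threshold in 4 of the 20 fits that each left out 1 mouse, at 0.0830 without HFD control replicate 1, 0.0711 without HFD control replicate 2, 0.0556 without HFD + Aroclor + PCB 126 replicate 1 and 0.0638 without HFD + Aroclor + PCB 126 replicate 5. It was 0.0598 with only the 2 groups in the fit. After GC correction the log2FC of Acadm was 0.18 (adjusted p = 0.313), and it was 0.021 (adjusted p = 0.982) when the GC slope entered the fit as a covariate.

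Ehhadh (ENSMUSG00000022853; chromosome 16, from 21761287 to 21787807, minus strand) encodes the bifunctional enzyme of peroxisomal beta-oxidation. Its level was 676, 831, 979, 1684 and 1252 CPM in the HFD control mice, a 2.49-fold span that took in all 5 mice of the combined exposure (989 to 1322 CPM). The single exposures lay in the same region, at 708 to 1375 CPM with Aroclor and 736 to 1256 CPM with PCB 126. The log2FC was 0.048 (95% interval −0.39 to 0.49) with the combined exposure, −0.035 (95% interval −0.48 to 0.41) with Aroclor and −0.059 (95% interval −0.50 to 0.38) with PCB 126. The edgeR adjusted p was 0.894, 0.942 and 0.928, respectively.

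Acaa1b (ENSMUSG00000010651; chromosome 9, from 119148023 to 119157093, minus strand) encodes a peroxisomal 3-ketoacyl-CoA thiolase, which carries out the last step of the peroxisomal cycle. Its level was 2713, 2624, 2376, 1711 and 2170 CPM in HFD control and 1817, 1671, 1998, 1219 and 1644 CPM with the combined exposure. The control mice were mostly higher, but HFD control replicate 4 lay below 2 mice of the combined exposure, so the groups overlapped. The level was 1803 to 2083 CPM with Aroclor and 1755 to 2956 CPM with PCB 126. The log2FC with the combined exposure was −0.47 (95% interval −0.78 to −0.17, standard error 0.148, edgeR adjusted p = 0.0184), compared with −0.22 (adjusted p = 0.426) for Aroclor and −0.073 (adjusted p = 0.859) for PCB 126. The adjusted p of the combined exposure was 0.0546 without HFD control replicate 1 and 0.0564 without HFD + Aroclor + PCB 126 replicate 4. After GC correction the log2FC of Acaa1b was 0.0084 (adjusted p = 0.982). The counts of Acaa1b are also uncertain, since 24.4% of the 75-base stretches of its transcripts occur in its close paralog Acaa1a as well, and its span overlaps Dlec1. For the other 7 genes at most 0.599% of such stretches occur in another gene.

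The GC content was 49.5% in the transcripts of Acadm and 58.5% in those of Acaa1b. Among all tested genes, the median log2FC with the combined exposure was 0.21 in the 4165 genes with 45 to 50% GC and −0.53 in the 4011 genes above 55% GC. In the first of these bands 21.4% of genes were called higher and 2.28% lower, while in the second 0.773% were called higher and 42.5% lower. The level of Acaa1b followed the GC slope over the 20 libraries (Pearson's r 0.87, Spearman's rho 0.81), and r was 0.80 without the 2 libraries farthest from the median slope and 0.81 with each group's mean removed. The values for Acadm were an r of −0.74 and a rho of −0.76 (−0.71 without the same 2 libraries, −0.51 with group means removed), and those for Ppara were −0.60 and −0.62 (−0.76 and −0.51). These are descriptions over libraries that share the exposure groups. GC slope and exposure are confounded for the combined exposure against control, so the parts of each in these differences cannot be told apart. The same holds for the length slope, which was higher in every library of the combined exposure than in every control library.

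**Figure D2:**
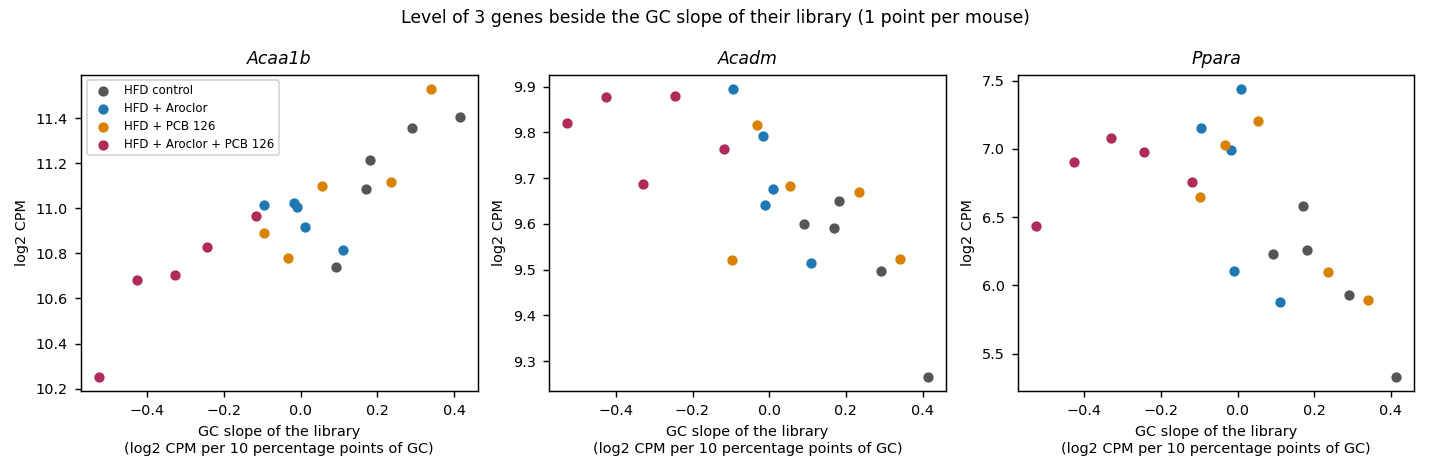
Level of Acaa1b, Acadm and Ppara (log2 CPM, vertical axes, which do not start at 0) against the GC slope of the same library (horizontal axis, log2 CPM per 10 percentage points of GC), 1 point per mouse and coloured by group. The libraries of the combined exposure sit at the lowest slopes. Those of HFD control (0.092 to 0.41) overlap with PCB 126 (up to 0.34) and Aroclor (up to 0.11). Acaa1b rises along the axis (r 0.87) and Acadm falls (r −0.74).

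Fgf21 (ENSMUSG00000030827; chromosome 7, from 45613886 to 45615490, minus strand) encodes a hormone that the liver secretes in fasting and nutrient stress. It was the least abundant of the 8, with 53 counts in the lowest library. Its level was 7.31, 3.99, 3.81, 6.01 and 2.71 CPM in HFD control and 3.61, 2.26, 10.8, 2.87 and 1.89 CPM with the combined exposure. It was 2.16 to 6.41 CPM with Aroclor and 3.83 to 7.41 CPM with PCB 126. Replicate 3 of the combined exposure was the highest of all 20 mice, and the other 4 of its group were at or below 3.61 CPM. The log2FC with the combined exposure was −0.15 (95% interval −0.97 to 0.67, edgeR adjusted p = 0.808). Without that mouse it was −0.85 (adjusted p = 0.0398), and without HFD control replicate 1 it was 0.060 (adjusted p = 0.935), so single mice set both its sign and its call. The log2FC was −0.28 (adjusted p = 0.723) with Aroclor and 0.12 (adjusted p = 0.921) with PCB 126.

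Pdk4 (ENSMUSG00000019577; chromosome 6, from 5483351 to 5496309, minus strand) encodes a kinase that inactivates pyruvate dehydrogenase and thereby spares glucose carbon when fat is burned. It varied most from mouse to mouse, at 11.2, 34.8, 6.86, 53.3 and 134 CPM in HFD control, a 19.5-fold span within 1 group. With the combined exposure it was 54.1, 80.6, 49.1, 64.9 and 96.7 CPM, a 1.97-fold span. With Aroclor it was 23.5 to 75.5 CPM and with PCB 126 it was 44.2 to 142 CPM. The lowest mouse given PCB 126, alone or with Aroclor, was at 44.2 CPM. Of the HFD control mice 3 of 5 were at or below 34.8 CPM, and the others were at 53.3 and 134 CPM. This joins groups after the values were seen and was not tested. The log2FC was 0.53 (95% interval −0.62 to 1.68, edgeR adjusted p = 0.507) with the combined exposure, 0.83 (95% interval −0.32 to 1.99, adjusted p = 0.501) with PCB 126 and −0.25 (95% interval −1.40 to 0.90, adjusted p = 0.826) with Aroclor. Without HFD control replicate 5 the log2FC with the combined exposure was 1.38 (adjusted p = 0.0410), and that with Aroclor was 0.60 (adjusted p = 0.507).

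Vnn1 (ENSMUSG00000037440; chromosome 10, from 23894688 to 23905343, plus strand) encodes pantetheinase, which releases cysteamine and vitamin B5 from pantetheine. Its level was 314, 338, 354, 311 and 351 CPM in HFD control and 376, 435, 372, 330 and 409 CPM with the combined exposure, where 4 of 5 mice were above the highest control mouse. The mice spanned 294 to 436 CPM with Aroclor and 270 to 418 CPM with PCB 126. The log2FC was 0.20 (95% interval −0.036 to 0.45, edgeR adjusted p = 0.187) with the combined exposure, 0.12 (adjusted p = 0.591) with Aroclor and −0.038 (adjusted p = 0.914) with PCB 126. After GC correction the value for the combined exposure was 0.027 (adjusted p = 0.936).

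**Figure D3:**
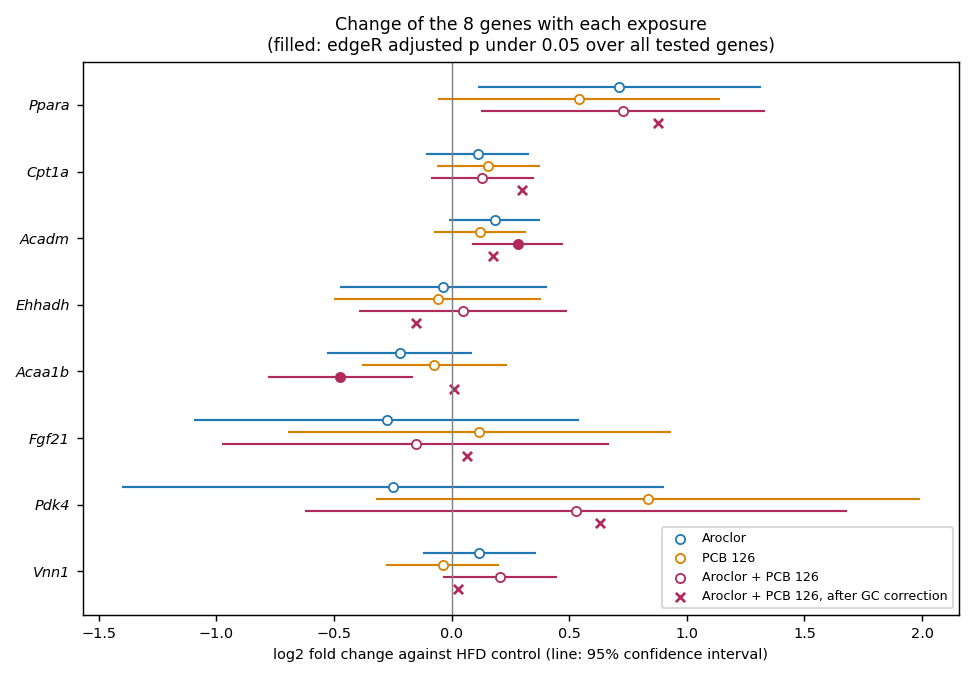
The log2FC of each of the 8 transcripts against HFD control (horizontal axis) with Aroclor, PCB 126 and both, with lines for the 95% interval, filled points for an edgeR adjusted p under 0.05 and crosses for the combined exposure after GC correction. The filled points are Acadm (0.28) and Acaa1b (−0.47) with the combined exposure, and the cross of Acaa1b lies at 0.0084.

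The combined exposure was also compared with each single exposure, which asks what the second PCB added. None of the 8 transcripts passed against Aroclor, and 0 of 8 had an unadjusted p under 0.05 where 23.4% of all genes did. The log2FC ranged from −0.25 for Acaa1b to 0.78 for Pdk4 (95% interval −0.38 to 1.93). Against PCB 126 the edgeR test called none, and 2 of 8 had an unadjusted p under 0.05 where 35.6% of all genes did. These were Acaa1b, with a log2FC of −0.40 (95% interval −0.71 to −0.093, adjusted p = 0.0644), and Vnn1, with a log2FC of 0.24 (95% interval 0.0016 to 0.48, adjusted p = 0.138). Acaa1b passed against PCB 126 with DESeq2 (adjusted p = 0.0249), and Vnn1 with the filter on FPKM (adjusted p = 0.0405). Leaving out 1 mouse brought Acaa1b under the threshold 4 times, for HFD control replicate 4 (adjusted p = 0.0419), HFD + PCB 126 replicates 1 (0.0441) and 2 (0.0409) and HFD + Aroclor + PCB 126 replicate 3 (0.0377), and Vnn1 1 time, for HFD + PCB 126 replicate 2 (0.0373). The interaction, in which the combined exposure is set against both single exposures added together as log2FC, was called for 0 of 8 transcripts and for 0% of all genes by the edgeR test. At an unadjusted p under 0.05 it was 0 of 8 against 11.9% of all genes. For Ppara the interaction was −0.53 (95% interval −1.38 to 0.32), an interval that includes 0.

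The order of the 4 groups by mean level differed between the genes, and no neighbouring groups in any of these orders passed the edgeR test (PCB 126 against Aroclor, used here too, called 0.0258% of all genes). Ppara, Cpt1a and Acadm were lowest in HFD control. The mean of Ppara went from 69.6 ± 20.6 CPM (SD, n = 5) in HFD control through 101 ± 38.2 with PCB 126 and 114 ± 49.0 with Aroclor to 115 ± 18.9 with both. Acaa1b ran the other way, from 1670 ± 289 CPM with both PCBs to 2319 ± 401 in HFD control. Per length, as FPKM averaged over all mice, Acaa1b (1043) was the most abundant of the 8, followed by Ehhadh (361), Acadm (209), Vnn1 (145), Cpt1a (122), Ppara (26.1), Pdk4 (17.3) and Fgf21 (4.78).

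The genes also differed in how much mice of 1 group varied. The coefficient of variation of CPM within groups, averaged over the 4 groups, was 59.3% for Pdk4, 47.8% for Fgf21, 31.7% for Ppara and 23.3% for Ehhadh. It was 8.63% for Acadm, 9.87% for Cpt1a, 12.0% for Vnn1 and 15.4% for Acaa1b, against a median of 15.6% for all genes with a mean of at least 1 CPM. Pdk4 and Fgf21 were more variable than 98.6% and 97.6% of these genes, and Acadm than 8.84%. A log2FC of the size seen for Acadm lies inside the 95% intervals of Pdk4 and Fgf21 with the combined exposure.

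Some of the 8 transcripts varied together among mice of the same group. With the group means removed and over 20 libraries, Ppara varied with Cpt1a (r 0.81), Acadm (0.65), Ehhadh (0.62) and Vnn1 (0.59), and Acadm varied with Ehhadh (0.73). Pdk4 was closest to Ehhadh (0.60). Fgf21 and Acaa1b stood apart from the other 6, with r from −0.35 to 0.04. Over all 11342 genes with a mean of at least 1 CPM, the transcripts most like Ppara were Cnot1 and Ndst1 (both 0.97). Those most like the enzymes were Slc25a13 (0.89) and Rbl2 (0.89) for Cpt1a, Usp38 (0.85) and Acsl1 (0.83) for Acadm, Cyp4a31 (0.93) and Snx29 (0.88) for Ehhadh, and Gstt2 (0.92) and Mief2 (0.91) for Acaa1b. For the others they were Tmem80 (0.86) and Col4a2 (0.84) for Fgf21, Ets2 (0.90) and Rell1 (0.89) for Pdk4, and Mto1 (0.80) and Eif3l (0.77) for Vnn1. Libraries share GC slope, length slope and depth, and with group means removed the level still varied with the GC slope (r −0.57 for Cpt1a, −0.51 for Ppara and Acadm and 0.81 for Acaa1b). With the length slope, r was 0.76 for Ppara, 0.70 for Cpt1a, 0.62 for Ehhadh, 0.50 for Acadm and 0.50 for Pdk4. It was 0.28 for Vnn1, −0.24 for Fgf21 and −0.66 for Acaa1b. The part that these slopes play in the shared variation was not tested.

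**Figure D4:**
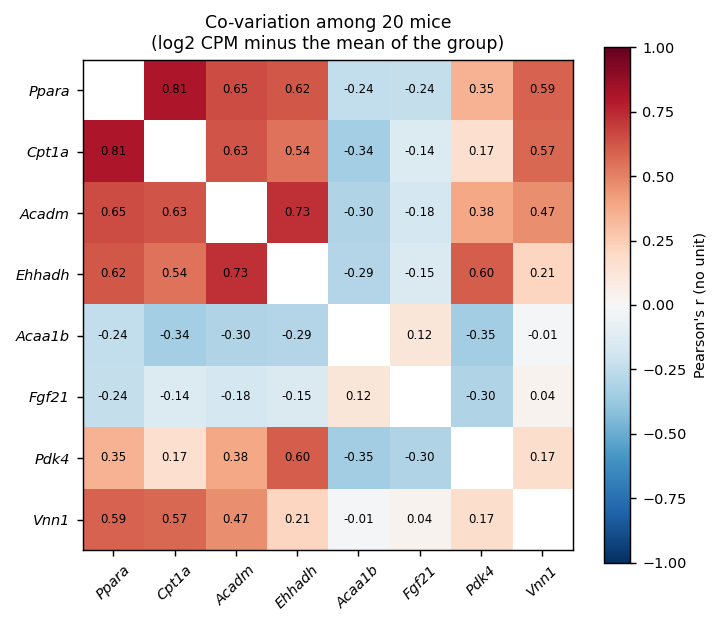
Pearson's r (colour and number) between the 8 transcripts over the 20 libraries, computed on log2 CPM after the mean of each group was removed. Ppara, Cpt1a, Acadm and Ehhadh form a block with r of 0.54 to 0.81, while Acaa1b and Fgf21 have r of −0.35 to 0.12 with every other gene.

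The promoters of the 8 genes were searched for the AGGTCA motif that PPAR alpha and its partner RXR bind as a direct repeat. RefSeq (GRCm38.p6) gave a start site for 7 of the 8, all but Vnn1, and the 250 bases before it were read on both strands. Exons annotated in GENCODE M21 cover 150 bases of the Ppara window, 31 of that of Pdk4 and 16 of that of Cpt1a. These windows lie partly or wholly inside the gene spans given above. The motif occurred in Acadm and Cpt1a, and it occurs in 14.02% of 32851 promoters of this length. In neither did it form the direct repeat AGGTCANAGGTCA, which 0.0335% of promoters hold, or the looser form AGGNCANAGGNCA, which 0.338% hold. The windows of the 2 called genes are shown because their transcripts moved in opposite directions and because they differ in composition, with 64.0% GC for Acadm and 41.6% for Acaa1b. The stretch of Cpt1a around its motif is shown as the other match. Capitals mark the motif, which reads TGACCT here because it lies on the opposite strand, and it begins 249 bases before the start of Acadm and 94 bases before that of Cpt1a. The Acaa1b window contains no match. The sequences lie at chr3:153944644-153944893 (minus strand), chr9:119157094-119157343 (minus strand) and chr19:3323195-3323224 (plus strand), respectively. A match in these letters does not show that the receptor binds there.
Acadm: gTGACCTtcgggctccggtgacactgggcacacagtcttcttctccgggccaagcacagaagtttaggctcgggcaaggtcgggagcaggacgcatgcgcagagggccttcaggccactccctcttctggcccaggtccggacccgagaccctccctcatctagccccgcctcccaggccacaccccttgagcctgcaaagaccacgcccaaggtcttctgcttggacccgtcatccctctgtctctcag
Acaa1b: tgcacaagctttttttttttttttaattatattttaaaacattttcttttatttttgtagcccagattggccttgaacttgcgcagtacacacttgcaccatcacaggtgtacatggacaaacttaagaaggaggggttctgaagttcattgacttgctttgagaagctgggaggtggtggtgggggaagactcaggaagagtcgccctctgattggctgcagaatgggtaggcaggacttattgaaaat
Cpt1a: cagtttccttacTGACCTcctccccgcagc

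Around the 8 genes, 158 further genes of PPAR alpha signalling and fatty acid use were tested in 12 groups by role. With the combined exposure 59 of the 158 were called by the edgeR test, 27 higher and 32 lower. This was 37.3%, near the 32.8% of all tested genes, and the median log2FC was 0.032 against −0.00096 for all genes. After GC correction, by which 6.75% of all tested genes were called, 8 of the 59 were still called in the same direction, and 3 changed sign. The 8 were Ppargc1a, Nrip1, Acot2, Acot4, Slc16a7 and Pank3, all higher, and Etfb and Plin2, both lower. With the GC slope as a covariate instead, 1 of the 158 was called, a peroxisomal gene, and none of these 8. With Aroclor alone and with PCB 126 alone 0 of 158 were called, and 20 and 21 had an unadjusted p under 0.05. In all genes 17.2% and 14.7% had such a p. DESeq2 called 4 of 150 with Aroclor and 4 of 153 with PCB 126, where it called 1.2% and 2.53% of all genes it adjusted. Against Aroclor the combined exposure gave 1 call (Gpd1, lower), and against PCB 126 it gave 35, of which 6 were higher and 29 lower, where 5.64% and 11% of all genes were. Both of these counts moved when 1 mouse was left out, from 0 to 14 (14 without HFD + Aroclor + PCB 126 replicate 3) and from 2 to 48 (2 without HFD + Aroclor + PCB 126 replicate 5), and after GC correction both were 0. The shares of all genes called moved too, from 0.412% against Aroclor and 16.7% against PCB 126. They were 6.51% and 1.58% in the fits named, and 0.00644% and 0% after GC correction.

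**Figure D5:**
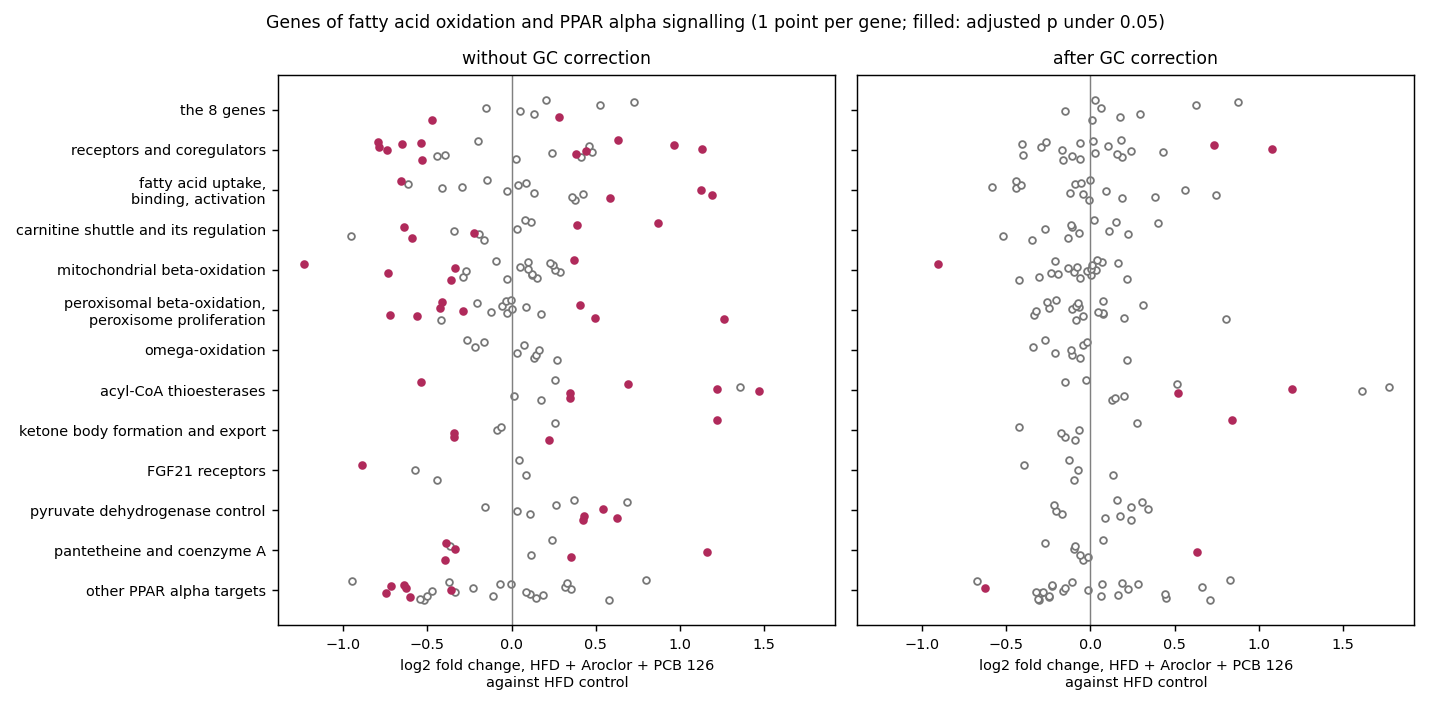
The log2FC with the combined exposure against HFD control (horizontal axis) of the 8 genes and of 158 related genes in 12 groups by role, 1 point per gene, filled where the edgeR adjusted p was under 0.05, before GC correction (left) and after it (right). Filled points lie on both sides of 0 on the left (27 higher and 32 lower among the 158), and 8 remain on the right.

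Among the receptors and coregulators that act with PPAR alpha, 5 of 19 were higher and 6 lower with the combined exposure, where 15.8% and 17% of all genes were, and 2 were higher and 0 lower after GC correction. Ppargc1a, a coactivator of PPAR alpha that is induced in fasting, was 5.31 ± 0.555 CPM in HFD control, 8.46 ± 0.914 with Aroclor, 8.21 ± 1.84 with PCB 126 and 10.4 ± 0.969 with both (SD, n = 5). Its log2FC was 0.97 (adjusted p = 0.000505, standard error 0.136) with the combined exposure, and it was 0.67 (adjusted p = 0.184) and 0.63 (adjusted p = 0.0548) with Aroclor and PCB 126. Nrip1, a corepressor of nuclear receptors, rose by a log2FC of 1.13 (adjusted p = 0.000586). Both were called after GC correction, at 0.73 (adjusted p = 0.00740) and 1.08 (adjusted p = 0.00238), and neither was with the GC slope as a covariate, at 0.75 (adjusted p = 0.172) and 0.29 (adjusted p = 0.750). Rxra, which encodes the RXR partner most abundant in liver, fell (log2FC −0.54, adjusted p = 0.00976). Creb3l3, a liver transcription factor that acts with PPAR alpha on Fgf21, fell as well (log2FC −0.53, adjusted p = 0.00234). Neither was among the calls that remained after GC correction.

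In fatty acid uptake, binding and activation, 3 of 15 genes were higher and 1 lower, where 15.8% and 17% of all genes were. After GC correction 0 of these 15 were called. The fatty acid transporter Cd36 rose by a log2FC of 1.13 (adjusted p = 0.00104) and the acyl-CoA synthetase Acsl3, which overlaps Utp14b, by 1.195 (adjusted p = 0.00226). With GC correction these were 0.56 (adjusted p = 0.0661) and 0.75 (adjusted p = 0.0562). In the carnitine shuttle and its regulation, beside Cpt1a, 2 of 12 were higher and 3 lower, against the same shares of all genes. None of the 12 was called after GC correction. Prkaa2, a catalytic subunit of AMP-activated kinase, rose (log2FC 0.87, adjusted p = 0.00295), Mlycd, which removes the malonyl-CoA that inhibits the Cpt1a enzyme, fell (log2FC −0.64, adjusted p = 0.00466), and Cpt2 fell by a smaller step (log2FC −0.22, adjusted p = 0.0437). After GC correction Prkaa2 had a log2FC of 0.40 (adjusted p = 0.137) and Mlycd of −0.11 (adjusted p = 0.668). The call of Cpt2 was held in 12 of the 20 fits without 1 mouse, and it was lost with no filter (adjusted p = 0.0515), with only the 2 groups in the fit (0.0827) and after GC correction (log2FC −0.068, adjusted p = 0.743). In mitochondrial beta-oxidation, beside Acadm, 1 of 19 was higher and 4 lower, again against 15.8% and 17% of all genes. After GC correction 0 were higher and 1 lower. Etfb, a subunit of the flavoprotein that takes electrons from the Acadm enzyme, fell most (log2FC −1.24, adjusted p = 0.00218), and it overlaps Gm45233. It remained lower after GC correction (log2FC −0.91, adjusted p = 0.0259) but had a log2FC of 0.30 (adjusted p = 0.734) with the GC slope as a covariate. Acads, the short-chain counterpart of Acadm, fell (log2FC −0.73, adjusted p = 0.00818), and the long-chain counterpart Acadl had a log2FC of 0.12 (adjusted p = 0.263). For Acads the value was −0.23 (adjusted p = 0.450) once GC content was corrected for, and 0.13 (adjusted p = 0.918) with the slope covariate.

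In the peroxisome, beside Ehhadh and Acaa1b, 3 of 18 were higher and 5 lower, where 15.8% and 17% of all genes were. After GC correction 0 of these 18 were called. Acaa1a, the paralog that shares sequence with Acaa1b, fell too (log2FC −0.56, adjusted p = 0.00725), but after GC correction it was at −0.042 (adjusted p = 0.877). Acaa1a has 59.6% GC and overlaps Myd88 and Slc22a14. The transporter Abcd2 rose (log2FC 1.26, adjusted p = 0.0115) and the thioesterase Acot8, which overlaps Snx21, fell (log2FC −0.72, adjusted p = 0.00464). With GC correction these were 0.80 (adjusted p = 0.167) and −0.34 (adjusted p = 0.189). Hsd17b4, the other bifunctional enzyme, had a log2FC of 0.086 (adjusted p = 0.500). In omega-oxidation 0 of 9 were called, and 2 of 9 had an unadjusted p under 0.05 in the edgeR test, where 42.4% of all genes did. The classical PPAR alpha targets Cyp4a10 and Cyp4a14 had a log2FC of 0.13 (adjusted p = 0.724) and 0.16 (adjusted p = 0.716).

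Of the acyl-CoA thioesterases 5 of 10 were higher and 1 lower, and after GC correction 2 were higher and 0 lower. Among all genes 15.8% were higher and 17% lower. The called genes included Acot3 (log2FC 1.47, adjusted p = 0.0386) and Acot4 (log2FC 1.22, adjusted p = 0.00117). Acot3 was called in 13 of the 20 fits without 1 mouse, and not with only the 2 groups in the fit (adjusted p = 0.0539) or after GC correction (adjusted p = 0.0658). Part of their sequence is shared within the Acot family, with 15.97% of the stretches of Acot3 and 1.67% of those of Acot4 found elsewhere, and both overlap Gm49366. Acot1, the cytosolic member known as a PPAR alpha target, had a log2FC of 0.17 (adjusted p = 0.572). For ketone bodies 2 of 7 were higher and 2 lower, against the same shares of all genes, and after GC correction 1 was higher and 0 lower. The monocarboxylate transporter Slc16a7 rose (log2FC 1.22, adjusted p = 0.000505). It was 0.84 (adjusted p = 0.0133) after GC correction and 0.83 (adjusted p = 0.344) with the GC slope as a covariate.

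Among the genes of the FGF receptors and of Klb, through which FGF21 acts, 0 of 5 were higher and 1 was lower. Of all genes 15.8% and 17% were, and 0 of these 5 were called after GC correction. Fgfr4 fell by a log2FC of −0.89 (adjusted p = 0.00104), and the co-receptor Klb had 0.047 (adjusted p = 0.880). With GC correction Fgfr4 was at −0.40 (adjusted p = 0.0598). In the control of pyruvate dehydrogenase, beside Pdk4, 4 of 10 were higher and 0 lower, against 15.8% and 17% of all genes, and 0 were called after GC correction. The 4 included the subunit Dld (log2FC 0.63, adjusted p = 0.00147) and the kinase Pdk1 (log2FC 0.54, adjusted p = 0.0163), while Pdk2, another kinase of the family, had −0.16 (adjusted p = 0.438). The log2FC of Dld was 0.084 once GC content was corrected for, and −0.032 with the slope covariate. In pantetheine and coenzyme A metabolism, beside Vnn1, 2 of 8 were higher and 3 lower, against the same shares of all genes. After GC correction 1 was higher (Pank3) and 0 lower, and Coasy, named next, had −0.046 (adjusted p = 0.877). Pank3, which starts coenzyme A synthesis, rose (log2FC 1.16, adjusted p = 0.00104), Coasy, which ends it, fell (log2FC −0.39, adjusted p = 0.0149), and the neighbour of Vnn1, Vnn3, had 0.24 (adjusted p = 0.132).

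Of 26 other PPAR alpha targets 0 were higher and 6 lower with the combined exposure, against 15.8% and 17% of all genes. After GC correction 1 was lower, and with the filter on FPKM 9 of 22 were. In these fits 6.75% and 52.3% of all tested genes, respectively, were called, higher or lower. The lipid droplet proteins Plin2 (log2FC −0.63, adjusted p = 0.00325) and Plin5 (log2FC −0.72, adjusted p = 0.00678) fell, and so did Gpd1, which makes glycerol 3-phosphate (log2FC −0.74, adjusted p = 0.00225). Plin2 was 1173 ± 87.0 CPM in HFD control and 759 ± 194 CPM with both PCBs, and after GC correction its log2FC was again −0.63 (adjusted p = 0.0232), while with the GC slope as a covariate it was −0.18 (adjusted p = 0.854). Angptl4, a target that inhibits lipoprotein lipase, had a log2FC of −0.52 (adjusted p = 0.0648). It passed with DESeq2 (adjusted p = 0.0327), with the filter on FPKM (0.0437) and in 4 of the 20 fits without 1 mouse. Of the 16 partner genes described here beside the 8 for their place in the pathway, Acaa1a, Plin2, Creb3l3, Rxra, Fgfr4 and Cpt2 fell and Ppargc1a rose, and the other 9 were not called. Of all tested genes 32.8% were called. After GC correction only Plin2 and Ppargc1a of these partners were called, and neither was with the GC slope as a covariate.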

How the data were processed

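The authors deposited raw counts per Ensembl gene for 20 liver libraries. Column-purified RNA went into a stranded mRNA library kit, and the pool was read in 2 sequencing runs. Per the methods and the submitters' processing notes, STAR 2.6 was the aligner, GRCm38.p6 the genome and HTSeq 0.10.0 the counter. Which annotation release and which strand option HTSeq used is not given in the sources used here, so overlapping genes are treated as uncertain. No column of the table was left out. The label of HFD + PCB 126 replicate 2 carries a second, differing number, and its title was followed. The methods place the gavage 2 weeks into a 12 week diet, while the labels give 12 weeks of PCB treatment.

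The tests covered genes whose counts summed to 10 or more. In the shallowest library, 1 CPM was worth 22.7 counts. The model, edgeR 4.0.16 in R 4.3.3 with TMM factors, held all 4 groups and used two-sided quasi-likelihood tests and Benjamini-Hochberg adjustment over all tested genes. FPKM values use the exon length of GENCODE M21, which matched 21754 of the 21780 genes. No library was a copy of another of its group: the most similar of the 40 within-group pairs had a chi-square of 18.7 per degree of freedom. Pairs from different groups were not checked in this way. Replicates are separate livers, 5 per group, per the methods.

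For GC correction, the deviation of each library's log2 CPM from the gene's mean was smoothed over transcript GC content (spline, 6 degrees of freedom) and used as an offset. The other alternatives were RLE normalization, DESeq2 1.42.0 (the tool the authors name for their comparisons), no filter, an FPKM of at least 1 in 3 libraries, only the groups compared, the replicate number as a block, the GC slope as a covariate, and each of the 20 mice left out. The comparison of PCB 126 with Aroclor, used only for the order of the levels, was added later. The steps were tested on simulated data.

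The 8 genes and all gene lists were chosen with earlier results of these data known. The genes named are the 8, 18 partners fixed by their place in the pathway, in each list the 2 called genes with the largest log2FC in either direction (mean of at least 1 CPM), and for each of the 8 the 2 genes of most similar variation. Some genes that this rule names are not reported here. Acot2 was named outside this rule, to complete a count, after its values were seen, as were the called marker genes.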

Additional observations from a re-analysis of the deposited data

Results flagged for a closer look

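Each of the 8 transcripts was examined in each of the 4 groups for a mouse far from the others, by the gap to its nearest neighbour over the range of the group (Dixon's 95% critical value for 5 mice). Of the 32 groups of values, 1 was flagged. Fgf21 was 10.8 CPM in HFD + Aroclor + PCB 126 replicate 3, while the other 4 mice of that group were at 1.89 to 3.61 CPM, and the gap was 0.807 of the range. Chance flags about 1 in 20 such groups.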

How the results depend on the processing

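The deposited counts limit Fgf21 most, with 53 to 309 counts per library. Exposure and the GC and length slopes of the libraries cannot be told apart for the combined exposure against control. With RLE normalization, no filter, the FPKM filter and DESeq2, no sign changed among the log2FC values recomputed, which were those of the 8 genes against control, of the pathway genes named by the rule for the combined exposure, and of Acaa1b and Vnn1 for the combined exposure against PCB 126.

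The count of called genes among the 8 with the combined exposure, 2 in the test as reported, was 0 with GC correction, 0 with GC correction and the replicate block and 0 with the GC slope as a covariate, and it ranged from 0 to 4 over the 20 fits without 1 mouse. It was 0 without HFD control replicate 1, 1 without HFD control replicate 2 or replicates 1, 4 or 5 of the combined exposure, and 4 without HFD control replicate 5. Against PCB 126, where the count was 0, it was 1 with DESeq2 and 1 with the FPKM filter, and it ranged from 0 to 2 with a mouse left out, being above 0 without HFD control replicate 4, HFD + PCB 126 replicates 1 or 2 or replicate 3 of the combined exposure. Of the 158 pathway genes, 59 in the test as reported, 8 were called with GC correction, 15 with GC correction and the block, 1 with the GC slope covariate, and 43 to 71 with a mouse left out. Against Aroclor, where the count was 1, it was 22 with DESeq2, 9 with the FPKM filter, 2 with RLE normalization, 0 with no filter and with only the groups compared, 0 with each of the 3 GC settings and 0 to 14 with a mouse left out (14 without replicate 3 and 3 without replicate 1 of the combined exposure, 6 without HFD control replicate 4, and 0 or 1 otherwise). Against PCB 126, where the count was 35, it was 55 with DESeq2, 0 with GC correction, 3 with GC correction and the block, 0 with the GC slope covariate and 2 to 48 with a mouse left out, with 7 and 5 without HFD + PCB 126 replicates 3 and 4, and 22, 11 and 2 without replicates 2, 4 and 5 of the combined exposure. With Aroclor alone, where it was 0, it was 4 with DESeq2 and 1 with GC correction and the block. With PCB 126 alone, where it was 0, it was 4 with DESeq2, 1 with the FPKM filter, 2 with GC correction and the block, 2 with the GC slope covariate and 0 to 2 with a mouse left out (2 without HFD + PCB 126 replicate 3). The share of all genes called with the combined exposure was 6.75% with GC correction, 1.96% with the GC slope covariate, 42.5% with DESeq2 and 52.3% with the FPKM filter. For the combined exposure against control, DESeq2 adjusted over 13220 genes and the FPKM filter over 8994. Against Aroclor the share was 12.6% with DESeq2, 7.07% with the FPKM filter and 0.00644% with GC correction. Against PCB 126 it was 29.2%, 35.5% and 0%, in the same order. With Aroclor alone it was 1.2% with DESeq2 and 0.161% with GC correction and the block. With PCB 126 alone these were 2.53% and 0.96%, and it was 0.523% with the FPKM filter and 4.28% with the GC slope covariate. The cause of these shifts was not tested.

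The replicate numbers come from the sample labels and belong to different animals. Of 30 pairs of libraries with the same number, 13 had a correlation of deviations over 0.1 (median 0.050, from −0.26 to 0.74), so the numbers were not taken to pair the mice. Between HFD control and the combined exposure 4 of 5 pairs were over 0.1 (from 0.047 to 0.74), and 4 of the 10 mice correlated best with the mouse of their own number. With the replicate number as a block, 4 of the 8 genes were called with the combined exposure (Ppara, adjusted p = 0.0493, Pdk4, adjusted p = 0.0487, Acadm and Acaa1b) and 1 against PCB 126 (Acaa1b). The block fit called 34.1% and 20.1% of all genes in these comparisons. Of the 158 pathway genes, the block gave 2 with Aroclor, 2 with PCB 126 and 7 for the combined exposure against Aroclor. Among all genes the shares were 0.168%, 0.651% and 3.06%. The log2FC of Pdk4 with Aroclor turned to 0.14. Cpt2 lost its call with the combined exposure (adjusted p = 0.0565).

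With GC correction these log2FC values changed sign with the combined exposure: Acaa1b 0.0084, Ehhadh −0.15, Fgf21 0.065, Pdk2 0.24, Cyp4a10 −0.064, Cyp4a14 −0.12, Klb −0.13, Acadl −0.19 and Hsd17b4 −0.071. Acaa1b with PCB 126 became 0.066. With the block as well, they were 0.012 for Acaa1b, −0.11 for Ehhadh, 0.25 for Pdk2, −0.020 for Cyp4a10, −0.077 for Cyp4a14, −0.12 for Klb, −0.19 for Acadl and −0.072 for Hsd17b4, and the values were 0.080 for Acaa1b with PCB 126 and 0.21 for Pdk4 with Aroclor. With the GC slope as a covariate, the log2FC with the combined exposure was −0.27 for Ppara, −0.22 for Cpt1a, −0.41 for Ehhadh, 0.29 for Acaa1b, 1.01 for Fgf21 and −0.99 for Pdk4. It was 0.28 for Acaa1a, 0.28 for Pdk2, −0.15 for Cyp4a10, −0.13 for Cyp4a14, −0.57 for Klb, 0.13 for Mlycd, 0.30 for Etfb, 0.13 for Acads, 0.18 for Acot8, −0.032 for Dld and 0.0050 for Coasy. In the same fit Cpt1a, Acaa1b and Fgf21 with Aroclor were −0.033, 0.12 and 0.25, Acaa1b with PCB 126 was 0.10, and Acaa1b for the combined exposure against PCB 126 was 0.19. None of these reversed values was called.

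The sign also changed in some of the fits without 1 mouse. With the combined exposure the log2FC ranged from −0.081 to 0.26 for Ehhadh, −0.85 to 0.060 for Fgf21, −0.0079 to 0.32 for Cyp4a10 and −0.048 to 0.14 for Klb. With Aroclor it ranged from −0.16 to 0.18 for Ehhadh and −0.60 to 0.60 for Pdk4. With PCB 126 it ranged from −0.19 to 0.16 for Ehhadh, −0.045 to 0.33 for Fgf21 and −0.14 to 0.022 for Vnn1. Acadm stayed at 0.22 to 0.33 and was called in 16 of 20 fits, and Acaa1b stayed at −0.57 to −0.38 and was called in 18. The fit on only the groups compared was not run for the interaction, which uses all 4.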
